A study of Mus musculus with 24 samples.

Results

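The 10 genes described here encode the replicative helicase and its partners at the DNA replication fork, together with the enzyme that supplies deoxyribonucleotides. They were chosen by name: the helicase subunits Mcm2, Mcm3, Mcm4, Mcm5, Mcm6 and Mcm7, the helicase cofactor Cdc45, the sliding clamp Pcna, and the ribonucleotide reductase subunits Rrm1 and Rrm2. All 10 were among the 35855 genes in the deposited tables, and all 10 were among the 12211 genes with enough counts to be tested. Across 24 libraries from mouse trachea, the levels of most of them were highest in the cells sorted as BCAM HI. Against BCAM LO, 5 of the 10 were higher in BCAM HI, where 2.43% of all genes tested were higher and 7.02% differed in either direction. Against DIFFERENTIATED EPCS 8 of the 10 were higher, where 19.4% of all genes were higher and 41.3% differed.

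The Mcm2 to Mcm7 proteins form a ring that is loaded onto DNA at origins before S phase and unwinds it once Cdc45 and the GINS complex have joined. Pcna encircles DNA behind the helicase and holds the polymerases on the template, while ribonucleotide reductase, built of the large subunit Rrm1 and the small subunit Rrm2, turns ribonucleotides into deoxyribonucleotides. Transcription of many of these genes is known to rise as cells leave rest and enter the cycle, under the control of E2F factors. In the airway epithelium, basal cells are the progenitors that divide and give rise to secretory and ciliated cells, and the adult trachea at rest renews itself slowly.

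RNA was sequenced from pools of 1000 cells sorted from the tracheas of untreated mice, with the SmartSeq2 method for cell populations and paired reads of 38 bases. Each of the 3 sorted groups, named BCAM HI, BCAM LO and DIFFERENTIATED EPCS in the labels, had 8 libraries, with 5 in batch 1 and 3 in batch 2. All mice were wild-type females, of the strain C57BL/6 according to the title of the series, and no group carried an allele or agent that the others lacked. BCAM is the basal cell adhesion molecule, a laminin-binding surface protein, and the series title calls the sorted cells subsets of basal cells. The sources used here give neither age nor how many mice stand behind a library, nor what the batch number means. Where libraries did not come from separate mice, the p-values measure only the spread between these libraries.

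Total estimated counts per library ran from 2318444 to 3686896 in BCAM HI, from 1824619 to 4440072 in BCAM LO and from 2249001 to 2575975 in DIFFERENTIATED EPCS. Levels are given as CPM, the counts of a gene scaled to a common library total. The basal keratin Krt5 averaged 1672 ± 295 CPM in BCAM HI, 929 ± 137 in BCAM LO and 0.854 ± 1.22 in DIFFERENTIATED EPCS (SD, n = 8), so both BCAM groups carried the basal marker. The 8 basal markers summed to 5772 to 8333 CPM in BCAM HI, 5436 to 6051 in BCAM LO and 338 to 2627 in DIFFERENTIATED EPCS. In the last group their sum averaged 2299 CPM in batch 1 and 593 in batch 2. The 8 secretory markers summed to 26031 to 35182 CPM in BCAM HI, 34894 to 75629 in BCAM LO and 13492 to 425189 in DIFFERENTIATED EPCS. The DIFFERENTIATED EPCS libraries also held 13734 to 116402 CPM of 5 thyroid genes, against at most 1280.1 in BCAM HI and 234 in BCAM LO, and the 3 batch 2 libraries of that group stood apart with 49153 to 116402 CPM of them. The label of that group is therefore used here as a name only.

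In the following, the CPM are on library totals scaled by trimmed mean of M-values (TMM), and a difference is a fitted log2 fold change ± standard error from edgeR's quasi-likelihood test over all 24 libraries with batch as a covariate. A gene was called when its Benjamini-Hochberg (BH) adjusted p over the 12211 genes was under 0.05. In sorted pools of cells, a larger share of cells in cycle and more RNA per cell cannot be told apart.

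The summed level of the 6 helicase subunits was 117 CPM at its lowest, 177 at the median and 327 at its highest over the 8 BCAM HI libraries. It was 103, 124 and 142 CPM in BCAM LO, and 87.2, 109 and 139 CPM in DIFFERENTIATED EPCS. The lowest BCAM HI library, replicate 7, lay within the range of both other groups, and replicate 1 was the highest of all 24.

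Mcm7, a helicase subunit of the stable Mcm4, Mcm6 and Mcm7 core, had 24, 45.5 and 70.5 CPM (lowest, median and highest) in BCAM HI. The values were 20.3, 22.2 and 31.0 CPM in BCAM LO, and 4.52, 21.8 and 27.2 CPM in DIFFERENTIATED EPCS. All 8 BCAM HI libraries exceeded the median of each of the other groups, and the 6 highest exceeded every library outside BCAM HI. Mcm7 was higher in BCAM HI than in BCAM LO by a log2 fold change of 0.87 ± 0.21 (edgeR, BH-adjusted p = 0.00808), and higher than in DIFFERENTIATED EPCS by 1.18 ± 0.21 (edgeR, BH-adjusted p = 4.93e-05). Within batch 1 the difference from BCAM LO was 1.07 (edgeR, BH-adjusted p = 2.25e-04), and within batch 2 it was 0.49 (edgeR, BH-adjusted p = 0.686). The call against BCAM LO held without any one library. With only protein-coding transcripts summed it was lost (log2 0.88, edgeR, BH-adjusted p = 0.107), as it was by limma with log2(TPM + 0.1) or log2(TPM + 1). Coding Mcm7 averaged 43.2 ± 15.9 CPM in BCAM HI and 22.8 ± 3.13 in BCAM LO (SD, n = 8). In the same fit, DIFFERENTIATED EPCS replicate 6 had 0 CPM of coding Mcm7. The part of that library in the lost call was not tested.

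Mcm3, which pairs with Mcm5 in the ring, had 14.1, 26.1 and 42.1 CPM in BCAM HI, 6.00, 14.9 and 17.8 CPM in BCAM LO, and 3.70, 8.97 and 22.5 CPM in DIFFERENTIATED EPCS. The groups overlapped through BCAM HI replicates 2, 4 and 7, which had 14.1 to 16.3 CPM, and through DIFFERENTIATED EPCS replicate 1 at 22.5 CPM. The difference was 1.02 ± 0.28 against BCAM LO (edgeR, BH-adjusted p = 0.0238) and 1.51 ± 0.30 against DIFFERENTIATED EPCS (edgeR, BH-adjusted p = 1.48e-04). The call against BCAM LO was lost on leaving out any of 5 libraries. It was also lost under 6 of 14 other settings, among them each batch alone and coding transcripts only.

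Mcm5, which closes the gate of the ring with Mcm2, had 11.3, 20.4 and 39.1 CPM in BCAM HI, 7.50, 12.2 and 15.9 CPM in BCAM LO, and 2.73, 5.61 and 15.2 CPM in DIFFERENTIATED EPCS. Of the 8 BCAM HI libraries, replicates 3 and 7 lay inside the range of the other groups. Mcm5 was higher in BCAM HI by 0.91 ± 0.28 against BCAM LO (edgeR, BH-adjusted p = 0.0456) and by 1.5 ± 0.30 against DIFFERENTIATED EPCS (edgeR, BH-adjusted p = 1.67e-04). The call against BCAM LO was close to the threshold, and leaving out 1 library ended it for 14 of the 24 libraries.

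Mcm4 had 16, 28.0 and 44.3 CPM in BCAM HI, 9.15, 16.5 and 23.4 CPM in BCAM LO, and 7.64, 13.4 and 26.4 CPM in DIFFERENTIATED EPCS. Its difference was 0.84 ± 0.22 against BCAM LO (edgeR, BH-adjusted p = 0.0175) and 0.86 ± 0.23 against DIFFERENTIATED EPCS (edgeR, BH-adjusted p = 0.00293). Without BCAM HI replicate 1, at 44.3 CPM the highest library for Mcm4, the adjusted p against BCAM LO was 0.0566 by edgeR with BH adjustment.

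Mcm6 and Mcm2 differed less between the groups. Mcm6 had 29.7, 51.3 and 94.2 CPM in BCAM HI, 22.6, 42.0 and 45.9 CPM in BCAM LO, and 27.2, 36.7 and 51.4 CPM in DIFFERENTIATED EPCS. It was higher in BCAM HI than in DIFFERENTIATED EPCS by 0.49 ± 0.19 (edgeR, BH-adjusted p = 0.0371), a call lost on leaving out any of 10 libraries and absent within batch 2, where the log2 difference was 0.03. Against BCAM LO the Mcm6 difference of 0.50 ± 0.18 did not pass the threshold (edgeR, BH-adjusted p = 0.103). Mcm2, the subunit that also binds histones at the fork, had 14.4, 23.2 and 42.4 CPM in BCAM HI, 10.3, 17.9 and 27.8 CPM in BCAM LO, and 9.90, 17.1 and 37.5 CPM in DIFFERENTIATED EPCS. The 3 groups overlapped, although BCAM HI replicates 1, 5, 6 and 8, at 28.2 to 42.4 CPM, exceeded every BCAM LO library. Mcm2 passed in neither comparison, with 0.53 ± 0.24 against BCAM LO (edgeR, BH-adjusted p = 0.209) and 0.48 ± 0.25 against DIFFERENTIATED EPCS (edgeR, BH-adjusted p = 0.129). The 95% intervals of these Mcm2 differences ran from 0.05 to 1.01 and from -0.01 to 0.98 on the log2 scale. The first takes in the fitted values of Mcm4, Mcm5 and Mcm7. It ends at about that of Mcm3, and being approximate it does not set Mcm2 apart from Mcm3. The second takes in the fitted values of Mcm4 and Mcm6 but not those of Mcm3, Mcm5 and Mcm7. The errors of the other genes are not counted in.

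**Figure D1:**
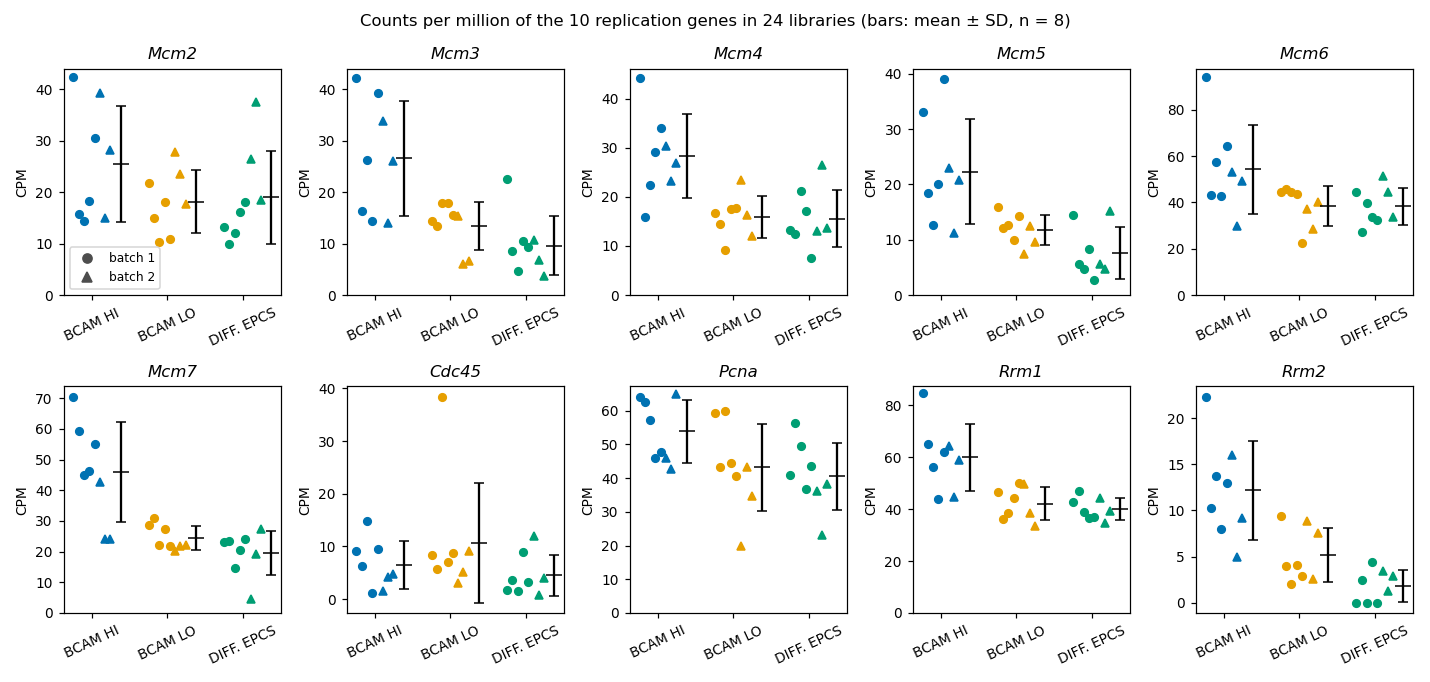
CPM (vertical axes) of each of the 10 replication genes in the 24 libraries, by group along the horizontal axes; each point is a library, circles are batch 1, triangles are batch 2, and bars give the mean ± SD of 8 libraries. The BCAM HI libraries reach the highest value of every gene except Cdc45, where BCAM LO replicate 3 stands alone at 38.4 CPM, and only for Rrm2 do BCAM HI and DIFFERENTIATED EPCS not overlap.

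The called subunits were compared with the DNA at their start sites. Promoter sequence was taken from RefSeq (mouse build GRCm38.p6), which gave 10 windows for 9 of the 10 genes, each with 250 bases before and 50 after an annotated start; Mcm4 had no entry. Both strands were searched for the E2F letters TTTCCCGC, TTTGGCGC, TTTCGCGC and TTTGCCGC, for CCAAT (the letters bound by NF-Y), for TTTGAA (the cell cycle homology region) and for GGGCGG (a GC box). The E2F letters were present for Mcm3, Mcm5, Mcm6 and Mcm7, 4 of the 9 genes, against 2.26% of all 32817 promoters of that length. CCAAT was present for 9 of 9 genes, against 37.4% of all promoters. The GC box letters were present for 7 of 9 against 35.6%, and TTTGAA for 2 of 9 (Cdc45 and Mcm2) against 17.9%. A match describes the letters and not a bound site, and where none was found only these letters were missing from the window. The 250 bases before the start are shown for the 4 genes with E2F letters and for Rrm2, the gene with the largest difference, 5′ to 3′ on the gene's strand; capitals mark the E2F letters and CCAAT on either strand (ATTGG is CCAAT read on the other strand).
Mcm3: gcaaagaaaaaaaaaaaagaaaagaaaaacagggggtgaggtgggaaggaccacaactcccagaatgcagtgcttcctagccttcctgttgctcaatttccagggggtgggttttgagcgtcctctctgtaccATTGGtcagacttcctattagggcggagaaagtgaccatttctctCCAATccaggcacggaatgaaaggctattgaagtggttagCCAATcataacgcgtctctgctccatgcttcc
Mcm5: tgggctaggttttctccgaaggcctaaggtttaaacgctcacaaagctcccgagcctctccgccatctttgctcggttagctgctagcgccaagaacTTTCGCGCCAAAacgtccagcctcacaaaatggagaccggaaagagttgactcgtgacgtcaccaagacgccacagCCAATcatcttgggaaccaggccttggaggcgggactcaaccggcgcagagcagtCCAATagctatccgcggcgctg
Mcm6: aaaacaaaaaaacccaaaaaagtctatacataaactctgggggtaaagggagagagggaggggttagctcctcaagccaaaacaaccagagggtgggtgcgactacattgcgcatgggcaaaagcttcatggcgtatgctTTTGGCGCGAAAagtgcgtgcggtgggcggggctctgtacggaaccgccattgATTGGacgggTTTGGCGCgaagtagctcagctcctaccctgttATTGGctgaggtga
Mcm7: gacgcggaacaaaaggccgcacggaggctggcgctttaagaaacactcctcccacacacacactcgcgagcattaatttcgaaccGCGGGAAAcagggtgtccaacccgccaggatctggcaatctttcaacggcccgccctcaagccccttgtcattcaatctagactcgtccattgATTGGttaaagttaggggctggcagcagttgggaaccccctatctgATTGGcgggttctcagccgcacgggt
Rrm2: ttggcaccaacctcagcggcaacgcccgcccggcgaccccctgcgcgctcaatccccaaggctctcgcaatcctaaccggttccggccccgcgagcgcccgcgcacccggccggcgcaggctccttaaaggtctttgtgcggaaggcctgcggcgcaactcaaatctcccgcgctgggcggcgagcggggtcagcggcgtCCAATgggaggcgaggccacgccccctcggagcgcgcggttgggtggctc

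These stretches lie at chr1:20820313-20820562 on the minus strand for Mcm3, chr8:75109259-75109508 on the plus strand for Mcm5, chr1:128359706-128359955 on the minus strand for Mcm6, chr5:138171884-138172133 on the minus strand for Mcm7 and chr12:24708004-24708253 on the plus strand for Rrm2. In Mcm5 and Mcm6, 2 matches on opposite strands overlap in a single run, at positions -153 to -142 of Mcm5 and -110 to -99 of Mcm6 counted from the start, and Mcm6 has a further match at -47 to -40. Mcm7 has a match at -165 to -158 and another just after the start, at positions 17 to 24. The second annotated start of Mcm7 held no E2F letters. Mcm3 has its 2 matches only after the start, at positions 20 to 27 and 39 to 46, and these 30 bases around the second of them (chr1:20820263-20820292, minus strand) are shown for that reason, with the match in capitals.
Mcm3 after the start: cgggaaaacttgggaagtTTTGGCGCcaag

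Among the 4 genes with E2F letters, Mcm3, Mcm5 and Mcm7 were called against both other groups and Mcm6 only against DIFFERENTIATED EPCS. The other 5 genes with a window had none of these letters. Of these, Rrm1 was also called higher in BCAM HI against both other groups, and Pcna and Rrm2 only against DIFFERENTIATED EPCS. Mcm2 and Cdc45 were called in no comparison between groups. Mcm4, which had no window, was called against both other groups.

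Rrm2, the small subunit of ribonucleotide reductase, whose supply limits the enzyme in cycling cells, showed the widest separation. It had 4.95, 11.6 and 22.3 CPM in BCAM HI, 2.06, 4.05 and 9.35 CPM in BCAM LO, and 0, 1.88 and 4.44 CPM in DIFFERENTIATED EPCS. Every BCAM HI library was above every DIFFERENTIATED EPCS library, and replicates 1, 3 and 5 of the latter had no Rrm2 count, which allows levels up to 1.73, 1.58 and 1.64 CPM (3 counts per library, counting error only). The difference was 2.76 ± 0.53, or 6.77-fold, between BCAM HI and DIFFERENTIATED EPCS (edgeR, BH-adjusted p = 1.03e-04). It was 3.27 within batch 1 (edgeR, BH-adjusted p = 5.96e-04) and 2.00 within batch 2 (edgeR, BH-adjusted p = 0.0386). BCAM LO was also above DIFFERENTIATED EPCS for Rrm2, by 1.49 ± 0.54 (edgeR, BH-adjusted p = 0.0333), a call lost on leaving out any of 7 libraries and within either batch alone. Between BCAM HI and BCAM LO, Rrm2 differed by 1.27 ± 0.46 without passing the threshold (edgeR, BH-adjusted p = 0.0937), although all 8 BCAM HI libraries exceeded the BCAM LO median; the 95% interval ran from 0.37 to 2.17.

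Rrm1, the large subunit, which is known to vary less through the cell cycle than Rrm2, differed by a smaller amount with a smaller spread. Its levels were 43.8, 60.3 and 84.6 CPM in BCAM HI, 33.3, 41.3 and 49.9 CPM in BCAM LO, and 34.6, 39.1 and 47.0 CPM in DIFFERENTIATED EPCS. Replicates 4 and 7 of BCAM HI, at 43.8 and 44.6 CPM, fell within the other groups, and the remaining 6 lay above all other libraries. The difference was 0.51 ± 0.13 against BCAM LO (edgeR, BH-adjusted p = 0.0123) and 0.58 ± 0.13 against DIFFERENTIATED EPCS (edgeR, BH-adjusted p = 5.46e-04). Leaving out any one library ended neither Rrm1 call.

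Pcna, the sliding clamp, was the most abundant of the 10 per transcript length and differed little. It had 42.8, 52.5 and 64.9 CPM in BCAM HI, 19.8, 43.3 and 59.9 CPM in BCAM LO, and 23.0, 39.6 and 56.3 CPM in DIFFERENTIATED EPCS, with wide overlap. Pcna was higher in BCAM HI than in DIFFERENTIATED EPCS by 0.43 ± 0.16 (edgeR, BH-adjusted p = 0.0304), a call lost on leaving out any of 4 libraries and within either batch alone. Against BCAM LO its difference of 0.34 ± 0.16 did not pass (edgeR, BH-adjusted p = 0.203). Reads of Pcna can be shared with its processed copies, of which Pcna-ps2 held 153 counts and Pcna-ps1 held 4 over all libraries, against 3410 counts of Pcna itself.

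Cdc45, the cofactor that turns the loaded ring into an active helicase, did not follow the subunits. It had 1.18, 5.52 and 14.9 CPM in BCAM HI, 3.09, 7.74 and 38.4 CPM in BCAM LO, and 0.853, 3.49 and 11.9 CPM in DIFFERENTIATED EPCS. BCAM HI was not above BCAM LO in the fit, with a log2 difference of -0.72 ± 0.51 (edgeR, BH-adjusted p = 0.452), and the value without BCAM LO replicate 3 was -0.11 (edgeR, BH-adjusted p = 0.938). Against DIFFERENTIATED EPCS the difference was 0.41 ± 0.55 (edgeR, BH-adjusted p = 0.597). Its sign was opposite in the batches, 1.10 within batch 1 and -0.63 within batch 2, and neither passed.

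**Figure D2:**
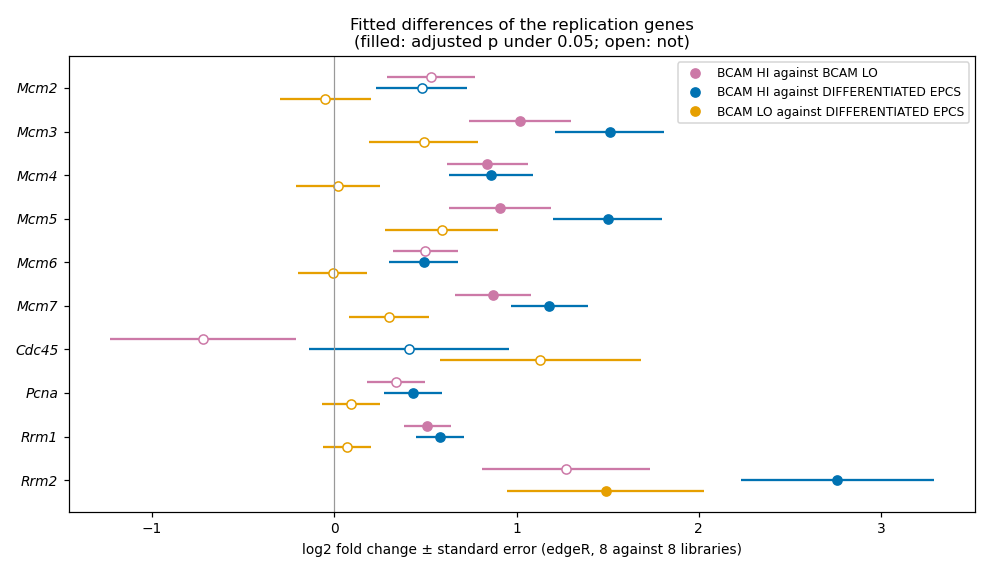
Fitted log2 fold change ± standard error (horizontal axis) of each of the 10 genes (vertical axis) in the 3 comparisons of 8 against 8 libraries; filled points had an adjusted p under 0.05. Rrm2 against DIFFERENTIATED EPCS lies farthest to the right at 2.76, and Cdc45 between BCAM HI and BCAM LO is the only point clearly left of 0, at -0.72.

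The gene-level sum for Cdc45 mixed different kinds of transcript. Of all Cdc45 counts, 67.3% were assigned to Cdc45-204, a retained-intron transcript of 1 exon at chr16:18810108-18811591 on the minus strand (GRCm38), within the gene at chr16:18780447-18811987. Its share of the pooled counts was 37.4% in BCAM HI, 87.3% in BCAM LO and 55.9% in DIFFERENTIATED EPCS, and 99.4% in BCAM LO replicate 3, the library at 38.4 CPM. The BCAM HI share rested on replicate 3 of that group: without it the share was 17.9%, 4 of the 8 libraries had no count of the transcript, and the median over libraries was 12.6%. Without BCAM LO replicate 3 the BCAM LO share was 74.8%, and the median there was 83.6%. The protein-coding transcripts of Cdc45 alone had 4.04 ± 3.45 CPM in BCAM HI, 1.79 ± 1.87 in BCAM LO and 1.91 ± 1.44 in DIFFERENTIATED EPCS (SD, n = 8), so that the order of BCAM HI and BCAM LO was the opposite of that of the whole gene. These coding counts were too few to pass the filter, and their difference was not tested. The groups overlapped, with coding Cdc45 from 0.707 to 9.60 CPM in BCAM HI and from 0 to 5.04 CPM in BCAM LO.

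Rrm1 also carried a retained-intron transcript, Rrm1-204, of 1 exon at chr7:102442043-102447517 on the plus strand, with 27.8% of its counts. Transcripts of Rrm1 that are not protein coding averaged 22.3 ± 4.64 CPM in BCAM HI, 21.5 ± 6.39 in BCAM LO and 16.3 ± 5.23 in DIFFERENTIATED EPCS. The coding transcript averaged 37.6 ± 10.5, 20.6 ± 3.12 and 23.6 ± 5.79 CPM in the same order. Coding Rrm1 was 29 CPM at its lowest in BCAM HI and 25.5 CPM at its highest in BCAM LO, so these groups did not overlap in the coding transcript, whereas they did in the gene's sum. This split by transcript was made after the data had been seen. The share of all genes whose coding transcripts separate these groups was not measured, so how unusual this is cannot be judged. For whole genes, 0.500% had all BCAM HI libraries above all BCAM LO libraries. With coding transcripts only, the Rrm1 difference between BCAM HI and BCAM LO was 0.86 (edgeR, BH-adjusted p = 0.00282), larger than the 0.51 of the whole gene. The program that made the estimated counts had to apportion reads between overlapping transcripts, and the error of these shares was not measured. Of the remaining genes, Mcm5 split its counts between 2 coding transcripts, Mcm5-203 with 72.6% and Mcm5-201 with 18.1%, and the other 7 had at least 81.5% of their counts in 1 coding transcript.

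**Figure D3:**
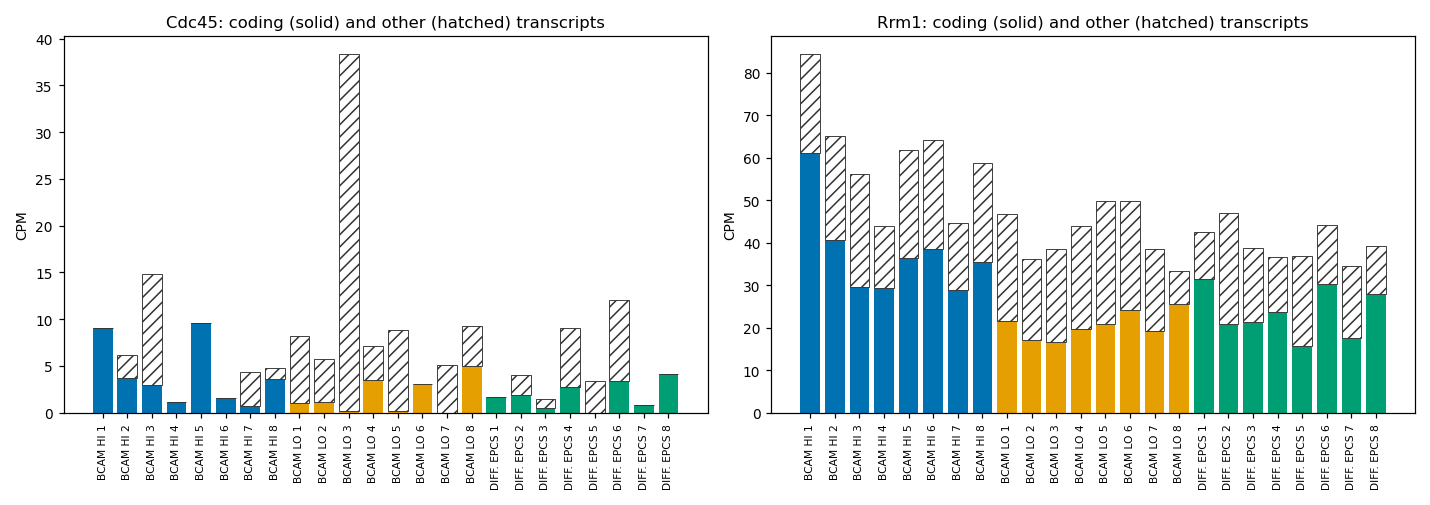
CPM (vertical axes) of Cdc45 and Rrm1 in each of the 24 libraries (horizontal axes, coloured by group), split into protein-coding transcripts (solid) and all other transcripts (hatched). The Cdc45 value of BCAM LO 3 is almost wholly hatched, and the solid part of Rrm1 is at least 29 CPM in all 8 BCAM HI libraries and at most 25.5 CPM in all 8 BCAM LO libraries.

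Against BCAM LO, the calls among the 10 genes were 5 higher and 0 lower in BCAM HI (Mcm3, Mcm4, Mcm5, Mcm7 and Rrm1), and 9 had an unadjusted p under 0.05 by edgeR. In that comparison 7.02% of all genes tested were called, 2.43% of all as higher and 4.59% as lower in BCAM HI. The median log2 difference was 0.68 over the 10 genes and 0.00 over all genes tested. None of the 10 had groups that did not overlap, against 0.500% of all genes with all BCAM HI libraries above all BCAM LO libraries. These genes were chosen with earlier results of these libraries known, so neither the count nor the median is independent evidence.

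Against DIFFERENTIATED EPCS, BCAM HI was higher for 8 of the 10 and lower for 0, where 41.3% of all genes were called, 19.4% as higher and 22.0% as lower. The median difference was 0.72 over the 10 genes and 0.02 over all. Rrm2 was the only one of the 10 whose groups did not overlap, against 6.10% of all genes in that direction. Between BCAM LO and DIFFERENTIATED EPCS only Rrm2 was called, 1 of 10, where 33.5% of all genes were called, 16.3% as higher and 17.1% as lower in BCAM LO; this share of the 10 is no larger than that of all genes. The median of the 10 genes was 0.20 there, against 0.02, and none of the 10 had groups that did not overlap, against 3.44% of all genes with BCAM LO above. The comparisons share libraries, so their counts are not independent of each other.

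The counts of calls rested partly on 1 library. BCAM HI replicate 1 had the highest level within its group for 7 of the 10 genes, and replicate 7 the lowest for 5. Without replicate 1, the calls against BCAM LO fell from 5 to 2 (Mcm7 and Rrm1) and those against DIFFERENTIATED EPCS from 8 to 6, with Mcm6 and Pcna lost. The direction did not change: 9 of the 10 genes stayed above 0 against BCAM LO and 10 of 10 against DIFFERENTIATED EPCS without that library. With only protein-coding transcripts summed, 2 genes were called against BCAM LO, Mcm4 and Rrm1. With an offset for transcript length in each library, only Mcm4 was called, and Mcm7 and Rrm1 had log2 differences of 0.53 (edgeR, BH-adjusted p = 0.242) and 0.43 (edgeR, BH-adjusted p = 0.259). Without the 3 BCAM LO libraries of batch 2, only Mcm7 was called. Other settings gave more calls than 5: with only these 2 groups fitted, and by DESeq2, Rrm2 was called as well, and with library totals in place of TMM 7 genes were called, Mcm6 and Rrm2 among them.

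Markers of other cells moved with the comparison of BCAM HI and BCAM LO. The secretory sum was at most 35182 CPM in BCAM HI and averaged 30233 ± 3080.4 CPM there, against 55889 ± 13225 in BCAM LO. The 8 ciliated markers summed to 44.6 to 306 CPM in BCAM HI and 331 to 653 in BCAM LO, and the 10 immune markers to 49.9 to 346 CPM in BCAM HI and 432 to 2003 in BCAM LO, mostly from Lyz2, which averaged 124 ± 96.0 and 1276 ± 471 CPM. The 6 suprabasal and hillock markers, genes of the layer and the squamous islands above basal cells, summed to 692 to 1387 CPM in BCAM HI and 1468 to 3157 in BCAM LO without overlap, and 4 of the 6 were lower in BCAM HI (Krt4, Krt8, Ly6d and Cldn3; edgeR, BH-adjusted). The pan-leukocyte gene Ptprc was at 1.51 ± 1.38 CPM in BCAM HI and 3.85 ± 3.20 in BCAM LO, and Ly6g had no count in BCAM HI. Fibroblast markers summed to 168 to 672 CPM in BCAM HI and 65.3 to 377 in BCAM LO, yet only 1 of 4 tested had a log2 difference above 0. The thyroid sum had a median of 25.7 CPM in BCAM HI and 5.30 in BCAM LO. No fibroblast or thyroid gene was called between these groups. Erythroid markers reached 1532 CPM in BCAM LO replicate 2, where the median of BCAM LO was 3.32. The part of all these markers in the replication gene differences was not tested. In DIFFERENTIATED EPCS the immune sum was 1247 to 25235 CPM, above every BCAM HI library as the thyroid sum was. Only 3 of the 10 immune markers were tested, and Lyz2 alone was called, lower in BCAM HI (edgeR, BH-adjusted). Between BCAM LO and DIFFERENTIATED EPCS, Lyz2 was again called lower in BCAM LO, whereas Csf1r was called higher there. The secretory sum of DIFFERENTIATED EPCS averaged 342115 CPM in batch 1 and 41107 in batch 2, against 30039 and 30555 in BCAM HI. Replicates 6 and 7 of DIFFERENTIATED EPCS, at 19983 and 13492 CPM, lay below all BCAM HI libraries. The part of these sums was likewise not tested.

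The batches differed for 2 of the 10 genes, where 21.4% of all genes were called for batch, 11.8% as higher and 9.61% as lower in batch 2. Mcm2 was higher in batch 2 by 0.58 ± 0.21 (edgeR, BH-adjusted p = 0.0465) and Pcna fell by 0.39 on the log2 scale in batch 2 (edgeR, BH-adjusted p = 0.0395). Leaving out 1 library ended the Mcm2 batch call for 17 of the 24 libraries and the Pcna batch call for 11, and each was lost under 4 of 8 other settings. Mcm7 averaged 55.2 CPM in batch 1 and 30.2 CPM in batch 2 of BCAM HI. Within batch 1 alone, edgeR called 3 of the 10 genes against BCAM LO (Mcm4, Mcm7 and Rrm1) and 8 against DIFFERENTIATED EPCS. Within batch 2, with 3 libraries a group, it called 0 and 2 (Mcm3 and Rrm2), while 9 and 8 of the 10 fitted differences were above 0. Of all genes, the batch 1 fit called 721 and 4273, of which 260 and 1990 were higher in BCAM HI. The batch 2 fit called 543 and 3664, of which 102 and 1597 were higher. Whether a difference depended on batch was tested directly in 30 interaction tests, 10 genes in each of 3 comparisons. None was called, the smallest adjusted p was 0.242 (Mcm6 between BCAM HI and DIFFERENTIATED EPCS, edgeR with BH adjustment), and 0 of the 30 had an unadjusted p under 0.05 by edgeR and 0 by DESeq2. Under the other settings none was called either, 0 to 4 had an unadjusted p under 0.05, and the smallest adjusted p was 0.0878 by edgeR with BH adjustment (without DIFFERENTIATED EPCS replicate 6). Over all genes, 1.06%, 8.69% and 11.4% were called for such an interaction in the 3 comparisons. The fitted interaction was below 0, a lower difference in batch 2, for 7, 8 and 10 of the 10 genes in the 3 comparisons. Their medians were -0.17, -0.64 and -0.23, against 0.02, -0.03 and -0.02 over all genes. Between BCAM HI and DIFFERENTIATED EPCS the approximate 95% intervals ran from -1.44 to -0.02 for Mcm6 and from -3.32 to 0.80 for Rrm2. These intervals are slightly narrower than the test allows. Although the Mcm6 interval just leaves out 0, its unadjusted p was 0.0525 by edgeR. With 3 libraries a group in batch 2, the absence of calls does not show equal differences in the batches.

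Levels can be compared between genes only per length, and for this the deposited TPM, which are scaled to transcript length and library, were summed per gene. From the top, the order was Pcna, Rrm1, Mcm6 and Mcm7 in each of the 3 groups. In BCAM HI the means were 53.6 ± 12 TPM for Pcna, 31.0 ± 7.20 for Rrm1, 27.9 ± 13.4 for Mcm6 and 25.6 ± 9.14 for Mcm7 (SD, n = 8). Pcna exceeded Rrm1 in 8 of 8 BCAM HI libraries, while Rrm1 exceeded Mcm6 in only 5 of 8, so the order of Rrm1 and Mcm6 does not exceed their spread. Mcm6 exceeded Mcm7 in 6 of 8. Mcm4, Mcm3, Mcm5 and Mcm2 followed at 14.6 ± 5.08, 14.6 ± 6.25, 12.2 ± 5.67 and 12.2 ± 6.63 TPM, where Mcm4 exceeded Mcm3 in 4 of 8 libraries and Mcm5 exceeded Mcm2 in 4 of 8. Rrm2 and Cdc45 came last in BCAM HI, at 6.82 ± 2.96 and 4.47 ± 3.15 TPM.

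The subunits of the ring, which are present in equal numbers in the complex, were unequal as RNA. Mcm6 made up 25.4% ± 5.4 of the summed TPM of Mcm2 to Mcm7 in BCAM HI, 29.5% ± 8.13 in BCAM LO and 28.3% ± 9.08 in DIFFERENTIATED EPCS. Mcm5 made up 11.1% ± 3.03, 8.98% ± 3.17 and 6.82% ± 4.96. The ratio of Rrm1 to Rrm2 TPM was 5.71 at the median of 8 BCAM HI libraries and 6.94 in BCAM LO. It was 13.3 over the 5 DIFFERENTIATED EPCS libraries with any Rrm2, with a range from 3.39 to 27.7.

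The other genes of replication were described from a list of 69, of which 51 had enough counts to be tested. Against BCAM LO, 1 of the 51 was called higher in BCAM HI and 0 lower, with a median log2 difference of 0.21. Of all genes tested, 2.43% were called higher and 4.59% lower, so the share called higher is no larger than that of all genes. The called gene was Orc2, a subunit of the origin recognition complex that marks where the ring is loaded, at 20.2 ± 4.52 CPM in BCAM HI and 12.7 ± 2.43 in BCAM LO (log2 0.67 ± 0.18, edgeR, BH-adjusted p = 0.0234). Ccna2, the S phase cyclin, had 7.44 ± 5.33 CPM in BCAM HI and 2.00 ± 1.93 in BCAM LO without passing (log2 1.92 ± 0.69, edgeR, BH-adjusted p = 0.0909). Uhrf1, which recruits the maintenance DNA methyltransferase to new DNA, had 10.9 ± 7.23 and 4.0 ± 2.88 CPM and did not pass either (log2 1.5 ± 0.53, edgeR, BH-adjusted p = 0.0871). The 7 tested polymerase and primase genes, the 6 of helicase assembly and firing, and the 11 of the clamp loader, lagging strand and single-strand binding had no call; their largest differences were those of Pold1 at 0.43, Tipin at 0.42 and Fen1 at 0.46. The 8 genes of nucleotide supply other than Rrm1 and Rrm2 had no call either, the largest difference being that of Shmt1 at 0.37.

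Against DIFFERENTIATED EPCS, 10 of the 51 were called higher in BCAM HI and 1 lower, with a median of 0.29, a share close to the 19.4% of all genes called higher. Of these, 3 supply nucleotides. Shmt1, a serine hydroxymethyltransferase, had 76.5 ± 10.5 CPM in BCAM HI, 59.4 ± 16.7 in BCAM LO and 21.9 ± 9.44 in DIFFERENTIATED EPCS (BCAM HI against DIFFERENTIATED EPCS 1.81 ± 0.22, edgeR, BH-adjusted p = 1.94e-07). Dut, the dUTPase, had 60.8 ± 8.61, 55.2 ± 10.8 and 19.0 ± 6.86 CPM, and Dck, deoxycytidine kinase, 19.2 ± 6.81, 16.5 ± 4.96 and 5.65 ± 3.07 CPM. These 3 were also called higher in BCAM LO than in DIFFERENTIATED EPCS, unlike Rrm1, which had a log2 difference of 0.07 ± 0.13 there (edgeR, BH-adjusted p = 0.701).

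The remaining 7 that were higher in BCAM HI than in DIFFERENTIATED EPCS were the licensing factors Cdt1 and Orc6, the Mcm-binding protein Mcmbp, the fork protection gene Timeless, the clamp loader subunits Rfc3 and Rfc5, and Ccna2. Gmnn, which encodes geminin, the inhibitor of Cdt1 that prevents a second loading of the ring, was the only gene of the list called lower. It had 7.70 ± 3.55 CPM in BCAM HI, 11.2 ± 3.84 in BCAM LO and 43.1 ± 7.62 in DIFFERENTIATED EPCS, and BCAM HI was lower by a log2 fold change of -2.47 ± 0.26 (edgeR, BH-adjusted p = 6.91e-09). BCAM LO against DIFFERENTIATED EPCS gave 5 genes higher (Dck, Dut, Shmt1, Timeless and Mcmbp) and 3 lower (Gmnn, Orc2 and Orc5) of 51, with a median of 0.13. Of all genes tested, 16.3% were called higher and 17.1% lower there, so neither share is larger than that of all genes.

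**Figure D4:**
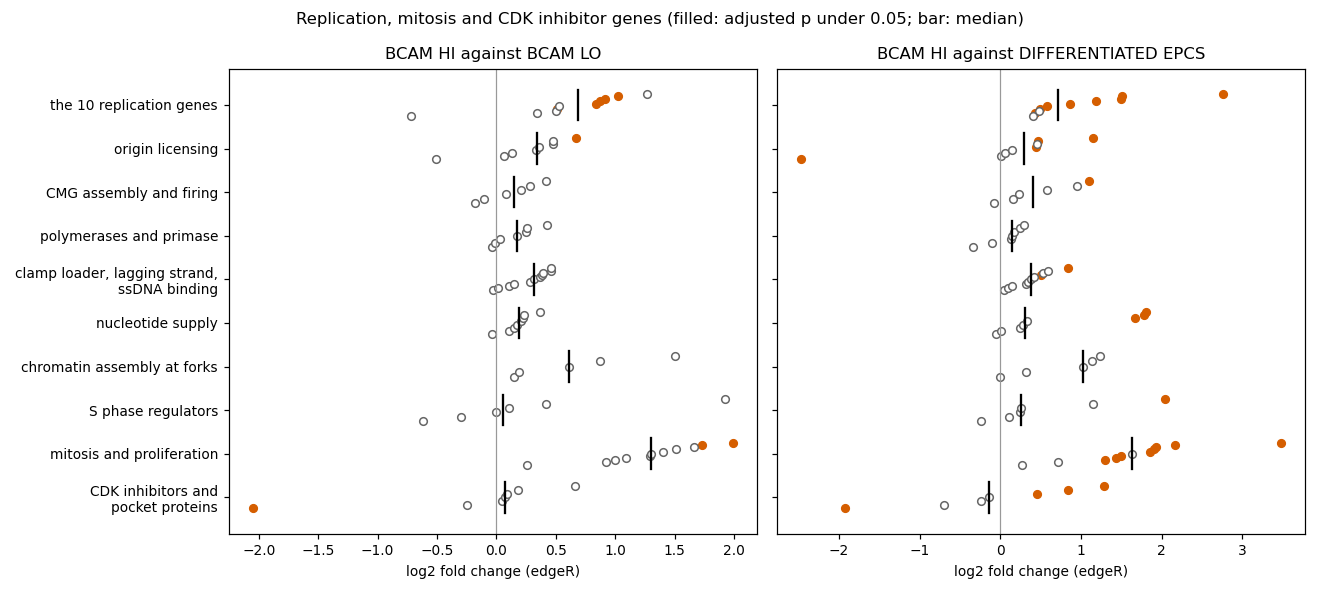
Fitted log2 fold change (horizontal axes) of the 10 genes and of the other tested genes by role (vertical axis), for BCAM HI against BCAM LO (left) and against DIFFERENTIATED EPCS (right); each point is a gene, filled points had an adjusted p under 0.05, and black bars are medians. The medians of the 10 genes, 0.68 and 0.72, are below those of mitosis and proliferation, 1.30 and 1.63. On the left the median of the 10 genes is above those of all 7 other replication roles, of which chromatin assembly at forks has 0.61. On the right it is above those of 6 of the 7, while chromatin assembly at forks has 1.03.

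Genes of mitosis and proliferation were set beside the replication genes. Of 16 listed, 11 were tested. Where 2.43% of all genes tested were called higher in BCAM HI than in BCAM LO, 2 of the 11 were. These were Ccnb1, the mitotic cyclin B1, at 9.51 ± 6.88 against 2.25 ± 1.92 CPM (log2 1.99 ± 0.54, edgeR, BH-adjusted p = 0.0217) and Birc5, survivin, at 7.84 ± 4.40 against 2.34 ± 1.10 CPM (log2 1.73 ± 0.48, edgeR, BH-adjusted p = 0.0255). Against DIFFERENTIATED EPCS 8 of the 11 were called higher in BCAM HI, where 19.4% of all genes were. Among the 8 was Mki67, a marker of cycling cells, at 10.3 ± 5.58 against 2.85 ± 2.25 CPM (log2 1.86 ± 0.50, edgeR, BH-adjusted p = 0.00325). The summed level of the 16 genes was 41.4, 109 and 226 CPM (lowest, median and highest) in BCAM HI, 21, 40.5 and 99.2 in BCAM LO, and 20.5, 35.7 and 94.9 in DIFFERENTIATED EPCS. In batch 1 this sum averaged 133 CPM in BCAM HI, 38.1 in BCAM LO and 36.5 in DIFFERENTIATED EPCS. The averages lay closer together in batch 2, at 87.2, 70.8 and 48.9 CPM. Libraries of BCAM HI and BCAM LO overlapped in both batches. BCAM HI replicate 1 was the highest library for this sum as well as for the helicase sum, and replicate 4, the lowest in BCAM HI for mitosis genes, was not the lowest for the helicase.

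**Figure D5:**
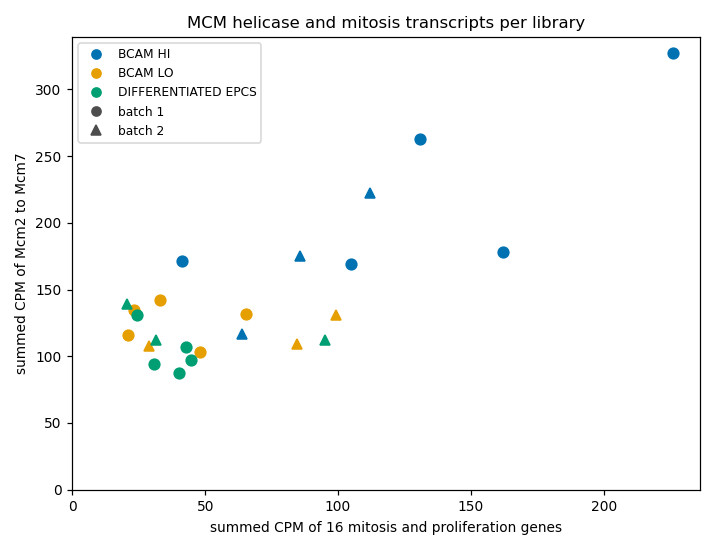
Summed CPM of Mcm2 to Mcm7 (vertical axis) against the summed CPM of 16 mitosis and proliferation genes (horizontal axis) in the 24 libraries, coloured by group, with circles for batch 1 and triangles for batch 2. The BCAM HI libraries extend to 327 and 226 CPM, while no library of the other groups exceeds 142 CPM for the helicase or 99.2 CPM for mitosis.

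Inhibitors of the cyclin-dependent kinases and the pocket proteins that hold E2F, the Rb1 family, were the last group. Cdkn2b, which encodes the inhibitor p15, was lower in BCAM HI than in BCAM LO, at 1.79 ± 1.28 against 7.86 ± 3.58 CPM (log2 -2.05 ± 0.43, edgeR, BH-adjusted p = 0.00342). It was the only call among 7 tested genes, where 4.59% of all genes were called lower. Against DIFFERENTIATED EPCS, Cdkn2b was lower and Rb1, Cdkn1a and Cdkn1b were higher in BCAM HI, where 22.0% of all genes were called lower and 19.4% higher. Rb1, Cdkn1a and Cdkn1b were also called higher in BCAM LO than in DIFFERENTIATED EPCS, and Cdkn2c was called lower there. Cdkn1a, the inhibitor p21, had 174 ± 26.2 CPM in BCAM HI, 168 ± 16.5 in BCAM LO and 102 ± 48.2 in DIFFERENTIATED EPCS. Rb1 had 24.2 ± 2.87, 21.6 ± 5.06 and 10.2 ± 5.63 CPM. The sum of the 9 listed genes in DIFFERENTIATED EPCS averaged 156 CPM in batch 1 and 250.2 in batch 2, against 279.6 and 275 in BCAM HI.

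Genes outside the 10 whose levels followed their mean most closely over the 24 libraries were found by Pearson's r of log2 CPM with the mean of the standardised log2 CPM of the 10. The 8 closest were Tjap1 (r = 0.88), Mrm3 (0.84), Gcat (0.83), Prc1, Birc5, Socs3, Aldh6a1 and Smtn (each 0.82). The 24 libraries share 3 groups, 2 batches and the scaling of their totals, so these values are a description. Prc1, a microtubule-bundling protein of the dividing spindle, had 24 ± 7.14 CPM in BCAM HI, 11.6 ± 3.69 in BCAM LO and 4.94 ± 2.77 in DIFFERENTIATED EPCS. The 10 genes themselves had r from 0.28 for Cdc45 to 0.87 for Rrm1 with their own mean, and Mcm2 and Pcna reached only 0.50 and 0.51.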

How the data were processed

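Each library had 1 deposited table of transcripts with length, effective length, estimated count and TPM, per the file headers; the submitters' processing notes name kallisto 46.1, Picard and GRCm39, without an annotation release. The estimated counts deposited carry no normalization, and the TPM deposited are scaled to length. Transcripts were matched by identifier to GENCODE M21 (GRCm38): 116374 of 117497 matched, and unmatched ones held 0.317% to 0.594% of a library. Estimated counts were summed per gene and rounded. Totals ran from 1824619 to 4440072; no 2 libraries of a group agreed within sampling noise. Counts of the 10 genes ran from 0 to 342 per library, and since copies made by PCR were not told apart, floors cover counting error only.

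All 24 libraries were fitted once with edgeR 4.0.16 (robust quasi-likelihood, TMM, default filter on low counts, 12211 genes, group and batch), with BH adjustment over all genes; a further fit with group-by-batch terms tested interactions. Standard errors are the log2 change over the square root of F. Alternatives used DESeq2 1.42.0, limma 3.58.1 on log2(TPM + 0.1) and log2(TPM + 1), other scalings, filters, covariates and subsets of libraries, each batch alone and each library left out; totals without TMM, coding transcripts only, and BCAM LO without batch 2 were added after seeing the data. The test was checked on simulated data. The members and lists were chosen with earlier results of these data known. By rule, all 10 genes were named in each comparison, other list genes where called or with the largest change of their role, the 8 genes of most similar pattern, and transcripts with at least 10% of a gene's counts; Ptprc, Lyz2, Ly6g, Krt5 and the genes shown as examples of marker lists were chosen after their values were seen. Title numbers 1 to 8 recur in each group; the labels do not say that they pair libraries.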

Additional observations from a re-analysis of the deposited data

Results flagged for a closer look

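In 30 groups of 8 libraries (10 genes in 3 groups), the most extreme library was set against the rest by its gap to the nearest library over the group's range; chance marks about 1 group in 20, and 2 of 30 were marked. Cdc45 in BCAM LO replicate 3 had 38.4 CPM, with a gap of 0.831 of the range, and 99.4% of these counts lay in the retained-intron transcript Cdc45-204. Mcm3 in DIFFERENTIATED EPCS replicate 1 had 22.5 CPM, with a gap of 0.625 of the range. Both are above the 0.526 that marks a group of 8.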

How the results depend on the processing

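The 10 genes had 0 to 342 counts per library, and how much of the spread of Cdc45 and Rrm2 between libraries came from counting was not tested. The number of the 10 genes called against BCAM LO (5) was 3 without batch in the model, 3 with log2(TPM + 0.1), 3 and 0 within batches 1 and 2, and 1 with length offsets, but 6 by DESeq2, 6 with 2 groups fitted and, added after seeing the data, 7 with totals only. Of the other alternatives chosen after seeing the data, coding transcripts only gave 2 and BCAM LO without batch 2 gave 1. Leaving out each library gave 2 to 6. BCAM HI against DIFFERENTIATED EPCS (8) gave 2 within batch 2 and 6 to 8 on leaving out a library. BCAM LO against DIFFERENTIATED EPCS (1) gave 0 with only these 2 groups fitted, 6 with either TPM pseudocount, 0 within batch 2, 7 with totals only, 0 with coding transcripts, 0 without BCAM LO batch 2, and 0 to 2 on leaving out a library. The batch calls (2) became 1 with length offsets, 1 with either TPM pseudocount, 0 with totals only, 1 with coding transcripts, and 0 to 3 on leaving out a library.

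For the 51 other replication genes, calls against BCAM LO (1) were 2 by DESeq2, 0 without a filter, 3 with 2 groups fitted, 2 with length offsets, 5 with log2(TPM + 0.1), 7 with log2(TPM + 1), 5 with totals only, 0 within batch 2, 0 without BCAM LO batch 2, and 0 to 2 on leaving out a library. BCAM HI against DIFFERENTIATED EPCS (11) gave 38 with either pseudocount, 42 with totals only, 4 within batch 2, 6 with coding transcripts and 8 to 14 on leaving out a library. BCAM LO against DIFFERENTIATED EPCS (8) gave 17 with either pseudocount, 19 with totals only, 5 within batch 2 and 6 to 9. Against TMM, totals only moved the median log2 difference of all genes by 0.17, 0.54 and 0.38 in the 3 comparisons, and log2(TPM + 0.1) by 0.26, 0.73 and 0.46. Of all calls, 297 of 857, 2363 of 5044 and 1996 of 4086 were higher, against 871 of 1243, 6386 of 7678 and 4774 of 5658 with totals only.

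Signs turned as follows, none of them in a difference given as called in the report. Mcm2 and Cdc45 between BCAM HI and DIFFERENTIATED EPCS were -0.01 and -0.63 within batch 2. Between BCAM LO and DIFFERENTIATED EPCS, Mcm2 (-0.05) was 0.01 without a filter, 0.10 and 0.09 with the TPM pseudocounts, 0.12 within batch 1, 0.31 with totals only and 0.09 with coding transcripts, and -0.14 to 0.10 on leaving out a library. Mcm4 (0.02) was -0.04 within batch 2 and -0.01 without BCAM LO batch 2, and -0.07 to 0.18 on leaving out a library. Mcm6 (-0.01) was 0.05 without a filter, 0.01 with 2 groups, 0.00 without batch, 0.29 with length offsets, 0.75 and 0.70 with TPM, 0.18 within batch 1, 0.37 with totals only, 0.04 without BCAM LO batch 2, and -0.07 to 0.08 on leaving out a library. Rrm1 was -0.20 with coding transcripts. The cause was not tested.

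With the replicate number as a block, 4, 8 and 1 of the 10 genes were called in the 3 comparisons, and Mcm5 against BCAM LO had an adjusted p of 0.0595 by edgeR. Libraries with the same number correlated at 0.027 to 0.177 in their deviations from the group means, over 0.1 in 7 of 24 pairs, and 21 of 24 correlated best with their own number. The last is a hint from the data that the numbers pair libraries, which the labels do not say; with most pairs at or under 0.1 they were not taken as pairs.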
